A study of Mus musculus with 59 samples.

Results

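The sites described here are CTCF peaks called in reprogramming mouse fibroblasts given added Ctcf, and neither in such cells without it nor in embryonic stem cells (ESCs). Each is a 400 bp peak of the day 10 list from cells with OSKM and Ctcf that overlaps, by even 1 bp, no peak of the day 10 OSKM list and no peak of the wild-type ESC CTCF list. They are called added-Ctcf sites absent from ESCs. There were 2206 of them, which is 4.22% of the 52252 peaks of the day 10 OSKM and Ctcf list and 24.4% of the 9039 peaks of that list absent from the OSKM list. They were chosen by their presence or absence in these 3 lists, so those values describe the choice and support nothing.

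The study asked what CTCF does while fibroblasts are reprogrammed, and used ChIP-seq (sequencing of DNA recovered with an antibody against a chromatin protein) in 59 samples, 31 of them ChIP and 28 input. OSKM stands for Oct4, Sox2, Klf4 and c-Myc, the factors that turn fibroblasts into pluripotent cells. The day 10 cells were mouse embryonic fibroblasts of the OG2 line (which carries an Oct4-GFP reporter) given OSKM, Ctcf and shRNA by retrovirus, either OSKM with Ctcf and an shRNA against Smarca5 (1 ChIP sample), OSKM with Ctcf (2 samples), or OSKM (2 samples). A further set of cells reprogrammed with OSKM received an shRNA against Ctcf or a control shRNA against luciferase, and the labels' protocols also describe an inducible lentiviral OSKM with rtTA and doxycycline. These cells were taken on day 0, as Thy1+ cells on days 3 and 9, as SSEA1- Thy1- and SSEA1+ cells on days 6 and 9, and as Oct4-GFP+ cells on day 12. The ESCs were of the E14 line, either Smarca5 knockout made by Cas9 nickase (1 ChIP sample) or wild type (1 sample). SMARCA5 was mapped in ESCs through an overexpressed, biotin-tagged protein in picked single clones (2 samples), so its list describes added rather than endogenous protein.

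CTCF is a zinc-finger protein that binds a long DNA motif, halts the cohesin ring and so anchors chromatin loops and domain borders. SMARCA5 (SNF2H) is the ATPase of ISWI remodellers, which space nucleosomes, and CTCF binding is known to depend on it in mouse ESCs. In fibroblast reprogramming the surface protein Thy1 marks cells that keep their fibroblast character, SSEA1 marks intermediates, and Oct4-GFP marks cells that have switched on the pluripotency circuit.

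Sequence could be read for the sites that lie on gene starts. Of 21263 RefSeq promoter windows of protein-coding genes (build GRCm38.p6; 250 bp before to 50 bp after the start), 155 windows were covered over at least 200 bp by an added-Ctcf site absent from ESCs. A core of the CTCF motif, CCNCNAGNNGGC or its reverse complement GCCNNCTNGNGG (12 letters, both strands searched, no other motif searched), was present in 12 of the 155 windows (7.74%; 95% Wilson interval 4.48 to 13.0%). It was present in 2.96% of all 21263 windows. Those windows have a lower median GC content (56.3% against 67.7%), and its part in this contrast was not tested. The match lay in the central 200 bp of the peak in 5.81% of the 155. In 9 of the 12 windows 60 bases around the first match fitted upstream of the start, and in 7 of those 9 the match lay inside the peak. These 7 are printed below because they show the letters under the sites themselves; capitals mark the match, and each runs 5′ to 3′ along the strand of its gene. They come from chr1:37865094-37865153 (minus strand, Tsga10), chr1:75317074-75317133 (minus, Dnpep), chr1:93801978-93802037 (minus, Dtymk), chr10:62792521-62792580 (minus, Ccar1), chr10:121739830-121739889 (plus, BC048403), chr15:103034298-103034357 (plus, Hoxc4) and chr4:48540348-48540407 (plus, Msantd3).
Tsga10: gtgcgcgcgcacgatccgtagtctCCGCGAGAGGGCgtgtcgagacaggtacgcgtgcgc
Dnpep: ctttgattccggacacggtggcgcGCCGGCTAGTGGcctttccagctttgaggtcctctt
Dtymk: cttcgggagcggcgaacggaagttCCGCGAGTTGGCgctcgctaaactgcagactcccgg
Ccar1: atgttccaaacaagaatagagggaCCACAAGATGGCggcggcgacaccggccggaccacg
BC048403: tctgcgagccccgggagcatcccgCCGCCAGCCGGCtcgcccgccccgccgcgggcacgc
Hoxc4: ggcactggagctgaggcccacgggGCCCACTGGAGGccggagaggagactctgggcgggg
Msantd3: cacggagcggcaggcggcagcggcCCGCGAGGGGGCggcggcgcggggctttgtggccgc

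In the Dnpep and Hoxc4 windows the match is on the opposite strand, and in the other 5 it is on the strand printed. Dtymk encodes thymidylate kinase, Dnpep an aspartyl aminopeptidase and Hoxc4 a homeobox transcription factor of body patterning. The sites at Tsga10, Dtymk, Ccar1, BC048403 and Hoxc4 were also in the Smarca5 shRNA list, and those at Dnpep and Msantd3 were not. The sites at Ccar1 and BC048403 were in 2 and 1 of the 5 control shRNA lists, and the other 5 in none.

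Promoter windows under the other classes of CTCF peaks differed in how often they held the motif. The share was 16.9% of 1501 windows under sites of both day 10 lists, 6.94% of 346 windows under added-Ctcf sites that ESCs hold and 4.21% of 95 windows under sites of both day 10 lists absent from ESCs. The intervals of the last 2 shares (4.71 to 10.1% and 1.65 to 10.3%) overlap that of the added-Ctcf sites absent from ESCs, and that of the first (15.1 to 18.9%) does not. Windows under the added-Ctcf sites absent from ESCs were GC-rich, with a median GC content of 67.7% and a median of 27.0 CpGs in 300 bp, against 56.3% and 13.0 in all windows. The other peak classes were similar in this respect, with median GC contents of 63.7 to 68.0%. Of the windows with the motif, 7 of 12 had their site in the Smarca5 shRNA list, against 99 of 143 without it. A match here is a run of letters and not a measured binding site.

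The 16 deposited lists, 15 for CTCF and 1 for SMARCA5, hold 23600 to 89567 peaks. A group of 1 to 3 samples is represented by a single list, which leaves no spread between samples to set a difference against, and the intervals given cover counting error only. Every peak is 400 bp wide and carries the score 0, so weak peaks cannot be told from strong ones, and a peak missing from a list may be one that fell short of the authors' threshold; the part of peak strength in the results was not tested. No sequencing depth was given in the sources used here, and peak lists hold no RNA, so neither the markers of the sorted cells nor the level of Ctcf or Smarca5 could be checked. At the edge of the rule, the sites near Epor and Dedd were counted although an ESC peak lay 3 and 4 bp away, and peaks near Slco2a1 and Sox13 were not counted because they overlap an ESC peak by 3 and 4 bp. In all, 46 of the 2206 sites lay within 100 bp of a peak of either list used for their exclusion.

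Compared with other peaks of the list, the sites lay more often at gene starts and inside genes. Their centre was within 1 kb of a protein-coding start at 513 of 2151 sites (23.8%), against 10.5% of the whole list; 55 sites on chromosome 18 have no start in the table used and are left out of such counts. Among added-Ctcf sites that ESCs hold the share was 15.1%, which is 8.71 points lower (95% Newcombe interval of the difference 6.74 to 10.7). Among sites of both day 10 lists absent from ESCs it was 21.5%, and here the difference of 2.38 points had an interval that includes 0 (-0.253 to 4.98). Within 200 bp of a start the shares were 10.9% for the added-Ctcf sites absent from ESCs and 8.59% for the sites of both day 10 lists absent from ESCs, a difference of 2.34 points (0.469 to 4.18). The sites lay inside a protein-coding gene in 67.9% of cases, against 61.2% of added-Ctcf sites that ESCs hold (difference 6.66 points, 4.37 to 8.90) and 61.1% of sites of both day 10 lists absent from ESCs (6.80 points, 3.85 to 9.75). Inside or within 10 kb of a gene lay 1744 sites (79.1%), against 73.0% of the whole list.

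The sites were scattered along the genome. The median distance to another such site was 245 kb, and 82 sites (3.72%) had another within 10 kb. Other CTCF peaks were much nearer, with a median distance of 9.18 kb to any other peak of the same list, 11.5 kb to a peak of the OSKM list and 5.47 kb to a wild-type ESC peak. They made up 5.80% of the list's peaks on chromosome 14 (95% interval 4.86 to 6.90%), 5.17% on chromosome 1 (4.48 to 5.95%) and 2.57% on the X chromosome (1.78 to 3.68%), with the other autosomes between 3.47 and 4.93%. On the Y chromosome they were 3 of 11 peaks.

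**Figure D1:**
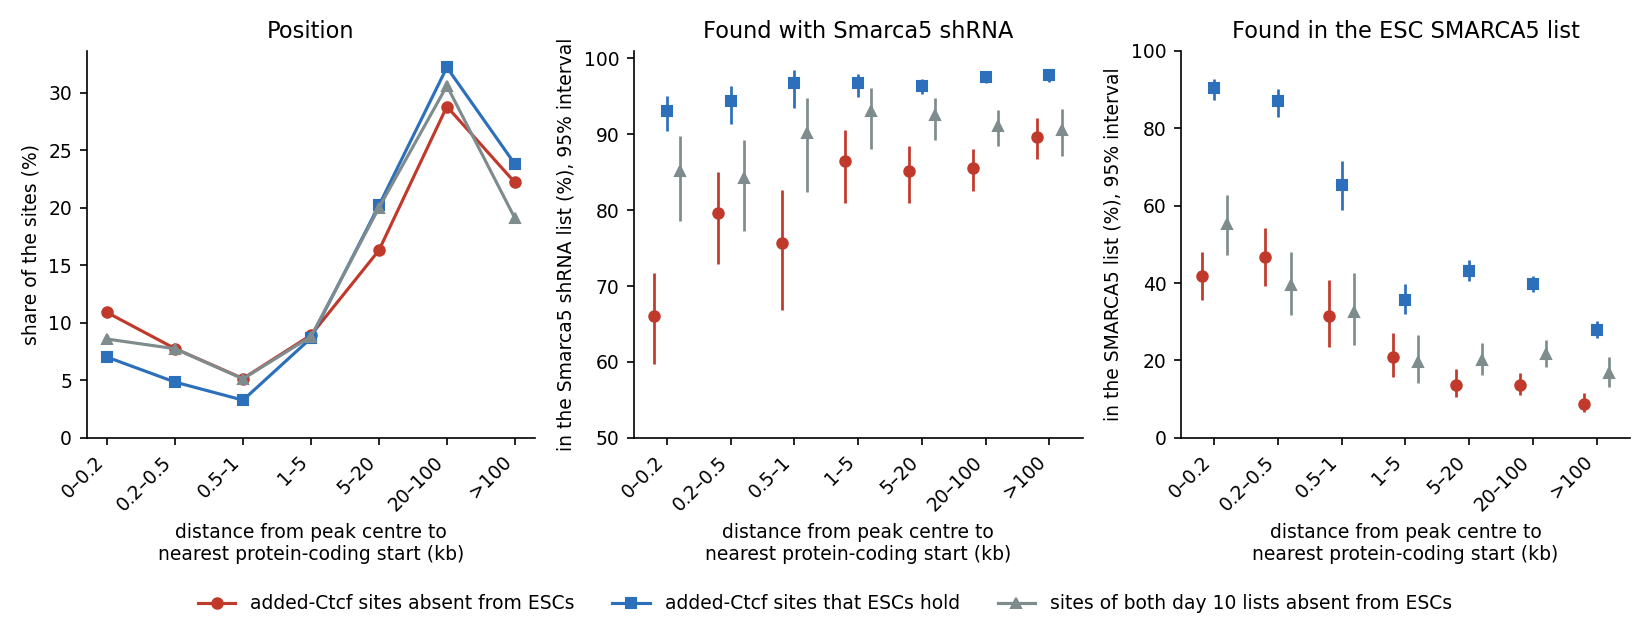
Position of 3 classes of day 10 peaks relative to the nearest protein-coding start (x axis, kb), with the share of each class per distance bin (left), the share of each bin in the Smarca5 shRNA list (middle, axis from 50%) and in the ESC SMARCA5 list (right). Red circles are added-Ctcf sites absent from ESCs, blue squares added-Ctcf sites that ESCs hold and grey triangles sites of both day 10 lists absent from ESCs; bars are 95% Wilson intervals. The red circles are lowest in the middle plot at 0 to 0.2 kb (66.0%) and highest beyond 100 kb (89.7%). Starts absent from the table used are not counted, so some sites may belong in a nearer bin.

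With an shRNA against Smarca5 in the same day 10 culture type, most of the sites were still called. The list of cells with OSKM, Ctcf and Smarca5 shRNA held 1841 of the 2206 sites (83.5%, 81.8 to 84.9%), against 98.3% of the whole day 10 OSKM and Ctcf list. Added-Ctcf sites that ESCs hold were found there in 96.8% of cases, and the difference was -13.4 points (-15.0 to -11.8). Sites of both day 10 lists absent from ESCs were found in 90.6% (-7.16 points, -9.19 to -5.11). The sites not found numbered 365. In the other direction, the Smarca5 shRNA list held 280 peaks that the OSKM and Ctcf list lacked, of which 116 were likewise absent from the OSKM and ESC lists. The day 10 lists share their start positions, so a site found in both has the same coordinates in each; all 1841 did. The knockdown group has 1 ChIP sample and the group without it 2, and how this bears on the number of calls was not tested.

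Sites at gene starts were missing more often with Smarca5 shRNA than sites elsewhere. Within 1 kb of a start 372 of 513 sites (72.5%) were found with Smarca5 shRNA, against 1421 of 1638 farther away (86.8%), a difference of -14.2 points (-18.5 to -10.2). At 0 to 200 bp from a start the share was 66.0% of 235 sites. The other classes differed less by position, with 94.3% near a start against 97.2% farther for added-Ctcf sites that ESCs hold, and 86.0% against 91.5% for sites of both day 10 lists absent from ESCs. Near a start the added-Ctcf sites absent from ESCs were 13.5 points below the sites of both day 10 lists absent from ESCs (difference -13.5, -18.5 to -8.15), and farther away the difference was -4.80 points (-6.98 to -2.59). The sites also differed by how often other cells had them. With Smarca5 shRNA 92.0% of the sites known from 1 or more control shRNA lists were found, against 79.8% of those in none (difference 12.2 points, 9.16 to 14.9). Other classes were not split by control lists, so whether this holds for CTCF peaks in general was not tested.

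Of all 2206 sites, 1545 (70.0%) were in none of the 5 control shRNA lists. The same was true of 312 of the 365 sites missing with Smarca5 shRNA, a count not made for other classes. The first 10 of them along the genome, all on chromosome 1, had as nearest gene Rims1, Hs6st1 (2 sites, 1 of them 261100 bp away), Aff3, Tgfbrap1, Dnah7c, Nab1, Stk17b, Plcl1 and Trak2. Of these, 7 lay at a gene start, with the peak centre 143 bp from that of Rims1 (a scaffold of the presynaptic active zone), 188 bp from Hs6st1 (a heparan sulfate sulfotransferase), 173 bp from Aff3 (a nuclear protein of the AF4 family), 190 bp from Tgfbrap1 (a vesicle tethering subunit), 47 bp from Nab1 (a corepressor of EGR factors), 199 bp from Stk17b (a serine/threonine kinase) and 63 bp from Plcl1 (a phospholipase C-like protein). These 10 were taken by position, so 7 of 10 is not the share among the 312, which is not given here. Of all the sites in none of the control lists, 26.0% lay within 1 kb of a start. The sites at the starts of Rims1, Hs6st1 and Aff3 had SMARCA5 in ESCs, and that at Rims1 also had CTCF in Smarca5 knockout ESCs. The sites at Tgfbrap1, Nab1, Stk17b and Plcl1, that near Dnah7c and the distant one with Hs6st1 as nearest gene were in none of the 13 lists in which the sites were followed.

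**Figure D2:**
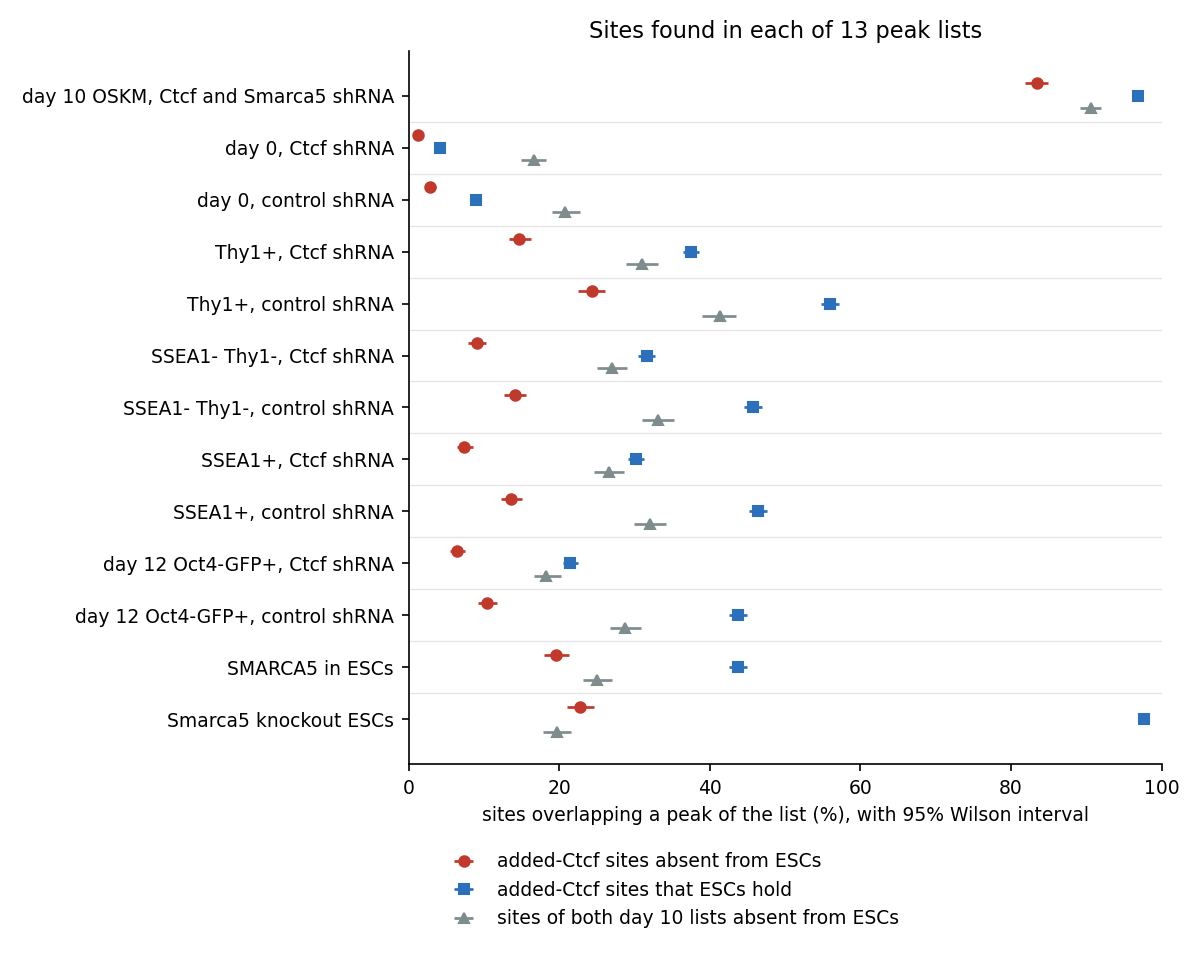
Share of 3 classes of day 10 peaks (x axis, %) that overlap a peak of each of 13 lists (y axis), with 95% Wilson intervals; red circles are added-Ctcf sites absent from ESCs, blue squares added-Ctcf sites that ESCs hold, grey triangles sites of both day 10 lists absent from ESCs. The red circles lie furthest left in every list but the Smarca5 knockout list, from 1.27% in day 0 cells with Ctcf shRNA to 83.5% with Smarca5 shRNA.

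Most of the sites were in none of the 5 control shRNA lists. In day 0 cells with control shRNA 64 sites were found (2.90%), against 51.9% of the whole day 10 OSKM and Ctcf list. Thy1+ control cells had 535 sites (24.3%), against 81.0% of the whole list, and were the population with the most. SSEA1- Thy1- control cells had 311 (14.1%), against 77.1%, SSEA1+ control cells 301 (13.6%), against 76.9%, and day 12 Oct4-GFP+ control cells 230 (10.4%), against 74.8%. The control lists other than day 0 are of similar length, 50890 to 53043 peaks, while the day 0 list has 28838. In 1 or more of the 5 control lists there were 661 sites (30.0%), against 89.1% of the whole list, and the other 1545 (70.0%) were in none. Added-Ctcf sites that ESCs hold were in 1 or more control lists in 75.0% of cases, and sites of both day 10 lists absent from ESCs in 52.4% (difference of the added-Ctcf sites absent from ESCs from these -22.4 points, -25.4 to -19.4). The Thy1+ lists carry a labelling conflict, since the description and source name of the day 3 samples contradict their titles on which received Ctcf shRNA; without the Thy1+ list, 19.8% of the sites were in 1 or more sorted control lists, against 29.5% with it.

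The sites found in control cells differed in how many of the lists held them. A single control list held 268 of the sites, and for 204 of these it was Thy1+. All 3 lists of Thy1+, SSEA1- Thy1- and SSEA1+ cells and no other control list held 86 sites, these 3 and day 12 together held 74, and all 5 control lists held 25. Sites in 3 or more control lists were rarely at gene starts, with 4.98% within 1 kb of a start, against 26.0% of sites in none (difference -21.0 points, -24.1 to -16.9). They were found with Smarca5 shRNA in 94.8% of cases, against 79.8% (15.0 points, 10.9 to 17.9). Neither split was made for other classes. By population, sites near a start were less often in the SSEA1- Thy1- control list (4.09% against 17.0% farther from a start; difference -12.9 points, -15.3 to -10.2) and in the SSEA1+ control list (3.51% against 16.8%; -13.3 points, -15.6 to -10.7). In Thy1+ control cells the shares were 21.2% near a start and 25.2% farther away, with a difference of -3.97 points whose interval includes 0 (-7.93 to 0.302). On day 12 they were 6.63% and 11.7% (-5.03 points, -7.51 to -2.14). Lower day 12 shares near a start were also seen in the other classes. They were 28.0% against 46.6% for added-Ctcf sites that ESCs hold, and 17.1% against 32.2% for sites of both day 10 lists absent from ESCs. In Thy1+ control cells these classes gave 61.2% against 55.0%, and 36.1% against 42.9%. The SSEA1- Thy1- and SSEA1+ lists were not split this way for other classes.

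**Figure D3:**
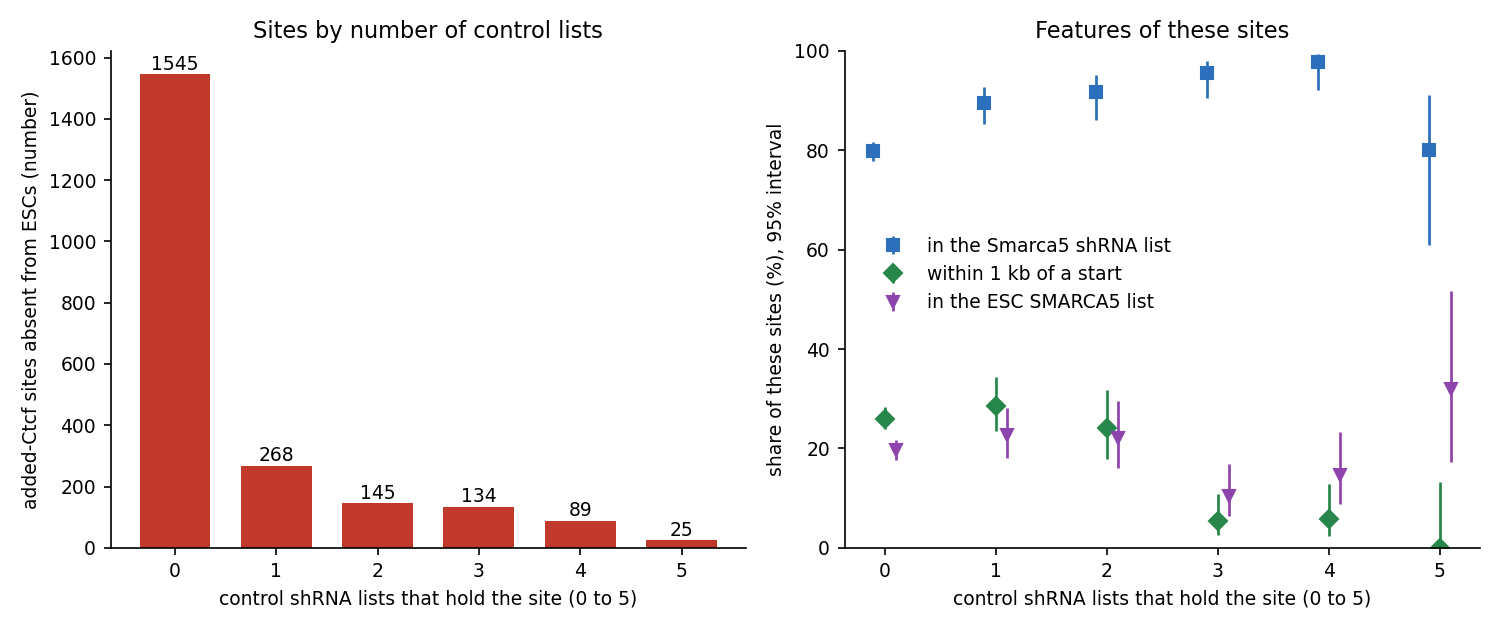
Added-Ctcf sites absent from ESCs by the number of control shRNA lists that hold them (x axis, 0 to 5), as numbers of sites (left) and as the share found in the Smarca5 shRNA list (blue squares), within 1 kb of a protein-coding start (green diamonds) and in the ESC SMARCA5 list (purple triangles) with 95% Wilson intervals (right). The number falls off from 1545 sites in none to 25 in all 5, and the share near a start is 24.1 to 28.6% for 0 to 2 lists and at most 5.75% for 3 to 5.

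Of the 25 sites in all 5 control lists, the first 10 along the genome lay in or nearest to Kcnt2 (a sodium-activated potassium channel), Olfr220 (an olfactory receptor), Otud1 (a deubiquitinase), Chmp4b (an ESCRT-III subunit), Ank2 (ankyrin-B), Fbxo42 (an F-box protein), Sema3a (a secreted guidance cue), Stard13, Ccdc106 and Rasd2 (a small GTPase). The site inside Fbxo42 (chr4:141197647-141198046) was in all 10 day 0 and sorted lists and in both followed ESC lists, yet not in the day 10 Smarca5 shRNA list. The site inside Ank2 was also absent with Smarca5 shRNA, and the other 8 of the 10 were present. The sites near Chmp4b and inside Ank2, Fbxo42 and Ccdc106 had SMARCA5 in ESCs. The site inside Rasd2 was in the Ctcf shRNA list of none of the 5 populations, while that inside Stard13 was in those of 4 populations, all but day 0.

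Only 12 sites within 1 kb of a start were in 3 or more control lists. The first 10 were at Desi2, Nat10 (an RNA acetyltransferase), H3f3c, Rsbn1, Scp2 (a sterol carrier), Nsun4 (a mitochondrial rRNA methyltransferase), Noc2l, Specc1, Pnn (a splicing-associated protein) and Bloc1s5 (a subunit of the BLOC-1 complex). Of these 10, those at Rsbn1, Scp2 and Bloc1s5 were in 4 control lists and the other 7 in 3. The sites at H3f3c and Bloc1s5 were absent with Smarca5 shRNA. H3f3c is a close copy of the other histone H3.3 genes, and whether reads were placed there uniquely was not tested. SMARCA5 was found in ESCs at Nat10, H3f3c, Noc2l, Specc1, Pnn and Bloc1s5.

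In each of the 5 populations the Ctcf shRNA list held fewer of the sites than the control list. There were 28 with Ctcf shRNA (1.27%) against 64 with control shRNA on day 0, where the Ctcf shRNA list held 42.7% of the whole day 10 OSKM and Ctcf list. In Thy1+ cells there were 325 (14.7%) against 535, with 72.0% of the whole list in the Ctcf shRNA list. In SSEA1- Thy1- cells there were 200 (9.07%) against 311, with 69.5% of the whole list. In SSEA1+ cells there were 163 (7.39%) against 301, with 69.6%. In day 12 Oct4-GFP+ cells there were 142 (6.44%) against 230, with 52.0%. The lists themselves were shorter with Ctcf shRNA, by ratios of 0.675 (day 12) to 0.870 (SSEA1- Thy1-). The ratio of sites with Ctcf shRNA to sites with control shRNA was 0.438 on day 0, 0.607 in Thy1+, 0.643 in SSEA1- Thy1-, 0.542 in SSEA1+ and 0.617 on day 12, and in each population it was below the ratio for the list's other peaks (0.823, 0.891, 0.903, 0.908 and 0.696). Over the 5 populations the geometric mean was 0.564 and, relative to the other peaks, 0.672, lower in 5 of 5 populations. A sign-flip permutation test (exact, two-sided) gave p = 0.0625 for each, the smallest that 5 pairs allow, so this design cannot reach 0.05. The Thy1+ values here and below carry the labelling conflict of the day 3 samples over which received Ctcf shRNA. Without the Thy1+ pair the geometric mean ratio of the sites was 0.554 over 4 pairs. The list's other peaks are mostly sites of both day 10 lists. Added-Ctcf sites that ESCs hold were also fewer with Ctcf shRNA. They numbered 287 against 608 on day 0, 2562 against 3824 in Thy1+ and 2157 against 3122 in SSEA1- Thy1- cells. In SSEA1+ cells it was 2065 against 3171, and on day 12 1467 against 2986. Their relative fall was larger than that of the added-Ctcf sites absent from ESCs on day 12 and smaller in the other 4 populations.

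Of the sites present with control shRNA, 18.8% were also present with Ctcf shRNA on day 0, 56.4% in Thy1+, 53.7% in SSEA1- Thy1-, 48.2% in SSEA1+ and 32.6% on day 12. Added-Ctcf sites that ESCs hold gave 27.3, 62.1, 62.7, 61.2 and 35.7% in the same order of populations. The difference was largest in SSEA1+ cells (-13.0 points, -18.8 to -7.12), and its interval included 0 on day 0 (-8.55 points, -17.1 to 3.17) and day 12 (-3.06 points, -9.04 to 3.47). Sites of both day 10 lists absent from ESCs gave higher values, 62.9, 69.9, 74.8, 77.1 and 51.6%. Of the 99 sites in all 4 sorted control lists, 25 (25.3%) were in all 4 Ctcf shRNA lists and 4 in none of them. A Ctcf shRNA list and no control list held 28 sites. These counts were not made for other classes of peaks, so no background share can be set beside them.

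**Figure D4:**
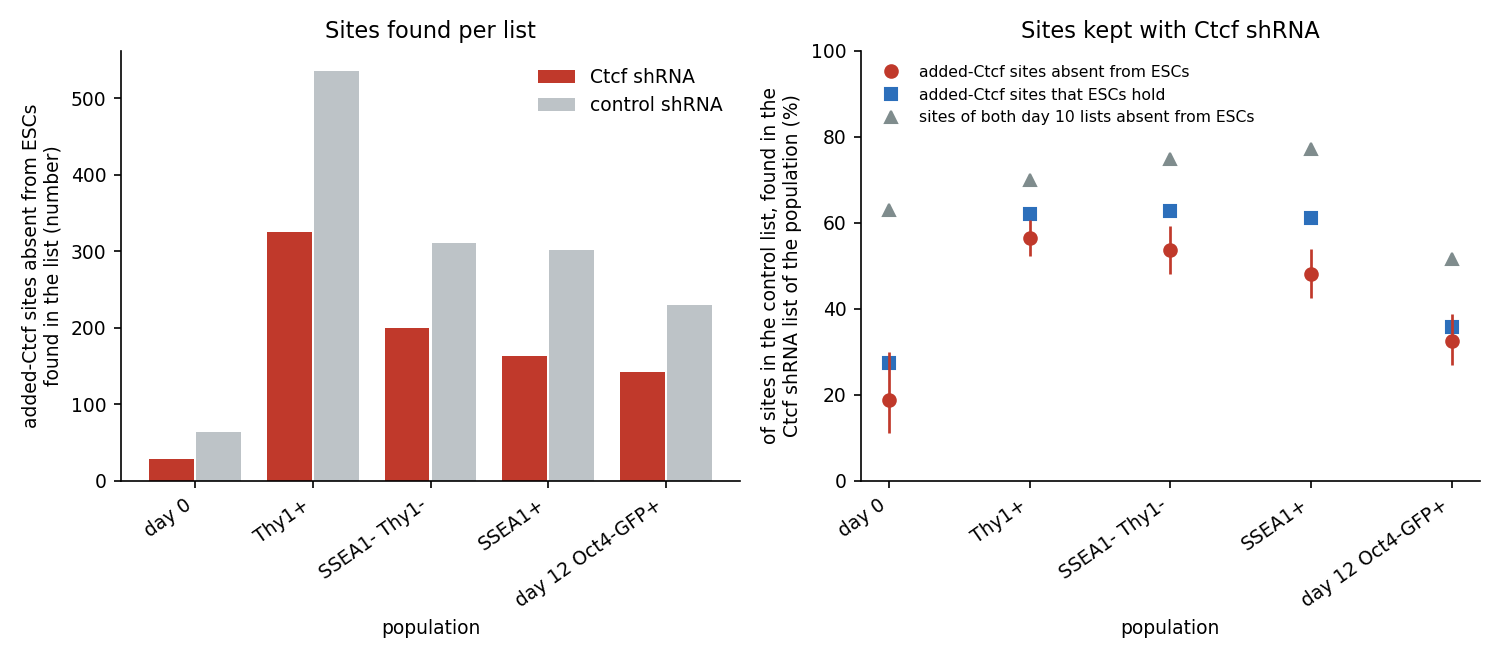
Added-Ctcf sites absent from ESCs in 5 populations (x axis): the number found with Ctcf shRNA (red) and with control shRNA (grey) on the left, and the share of the sites in the control list that are also in the Ctcf shRNA list on the right (red circles with 95% Wilson interval), beside added-Ctcf sites that ESCs hold (blue squares) and sites of both day 10 lists absent from ESCs (grey triangles). Every red bar is lower than the grey bar beside it, and the red circles run from 18.8% on day 0 to 56.4% in Thy1+ cells.

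SMARCA5 was found in ESCs at 432 of the sites (19.6%), although wild-type ESCs had no CTCF peak there by the rule. In the whole day 10 OSKM and Ctcf list the share was 56.9%. Sites of both day 10 lists absent from ESCs had SMARCA5 in 25.0% of cases and added-Ctcf sites that ESCs hold in 43.8%. The rule took sites by their absence from the wild-type ESC list, so their shares in other ESC lists are not independent of it. Sites of both day 10 lists absent from ESCs share that absence, whereas the whole list and the added-Ctcf sites that ESCs hold do not. SMARCA5 was more frequent at gene starts, with 41.1% of the sites within 1 kb of a start against 13.1% farther away (difference 28.0 points, 23.5 to 32.6). Near a start the share did not differ beyond counting error from the 44.2% of sites of both day 10 lists absent from ESCs (-3.03 points, -9.54 to 3.48), and farther away it was lower than their 19.8% (-6.69 points, -9.35 to -4.05). Of the sites with SMARCA5 in ESCs 81.7% were found in the Smarca5 shRNA list, against 83.9% of those without it, and the interval of the difference includes 0 (-2.17 points, -6.41 to 1.64). Split by position, the shares were 75.8% with and 70.2% without SMARCA5 near a start (5.63 points, -2.26 to 13.2), and 87.9% and 86.6% farther away (1.33 points, -3.98 to 5.48).

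CTCF was found in Smarca5 knockout ESCs at 502 of the sites (22.8%), all of them without a CTCF peak in wild-type ESCs by the rule. Of the whole day 10 OSKM and Ctcf list, 93.2% was in the knockout list, a contrast that is likewise not independent of the rule. The knockout list is longer than the wild-type list, 89567 against 83173 peaks, with 1 ChIP sample each. Sites of both day 10 lists absent from ESCs were in it in 19.7% of cases (difference 3.07 points, 0.539 to 5.57). The sites in the knockout list were more often found with Smarca5 shRNA, 90.8% against 81.3% of those not in it (9.56 points, 6.20 to 12.5). Other classes were not split in this way.

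Sites with SMARCA5 had knockout CTCF more often than sites without it. Both were present at 251 sites (11.4%), against 10.9% of sites of both day 10 lists absent from ESCs (0.483 points, -1.48 to 2.41) and 55.7% of the whole list. Of the sites with SMARCA5, 58.1% had CTCF in knockout ESCs, against 14.1% of sites without SMARCA5 (44.0 points, 39.0 to 48.8). In the whole list these shares were 97.9% and 87.1%, and among sites of both day 10 lists absent from ESCs 43.6% and 11.7%. At gene starts the shares were 56.9% and 5.63% (51.2 points, 43.8 to 58.1), and farther away 59.5% and 16.1% (43.4 points, 36.5 to 50.0). Away from starts this share of 59.5% was above the 35.8% of those sites of both day 10 lists absent from ESCs that had SMARCA5 (23.7 points, 14.9 to 32.0). Near a start the sites of both day 10 lists absent from ESCs with SMARCA5 gave 57.6%, and the difference of -0.775 points had an interval that includes 0 (-10.6 to 9.16). At all 251 sites with both, the SMARCA5 and the knockout CTCF peak have the same coordinates. None of the 432 SMARCA5 or 502 knockout peaks at these sites overlaps a wild-type CTCF peak. How the shared positions were made, and whether they raise this overlap, was not tested. SMARCA5 without knockout CTCF was found at 181 sites (8.20%), against 14.1% of sites of both day 10 lists absent from ESCs and 1.20% of the whole list. Knockout CTCF without SMARCA5 was found at 251 sites (11.4%), against 8.79% and 37.6%. Neither was found at 1523 sites (69.0%), against 66.2% and 5.58%, and the interval of the difference from the 66.2% includes 0 (2.80 points, -0.0819 to 5.70).

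**Figure D5:**
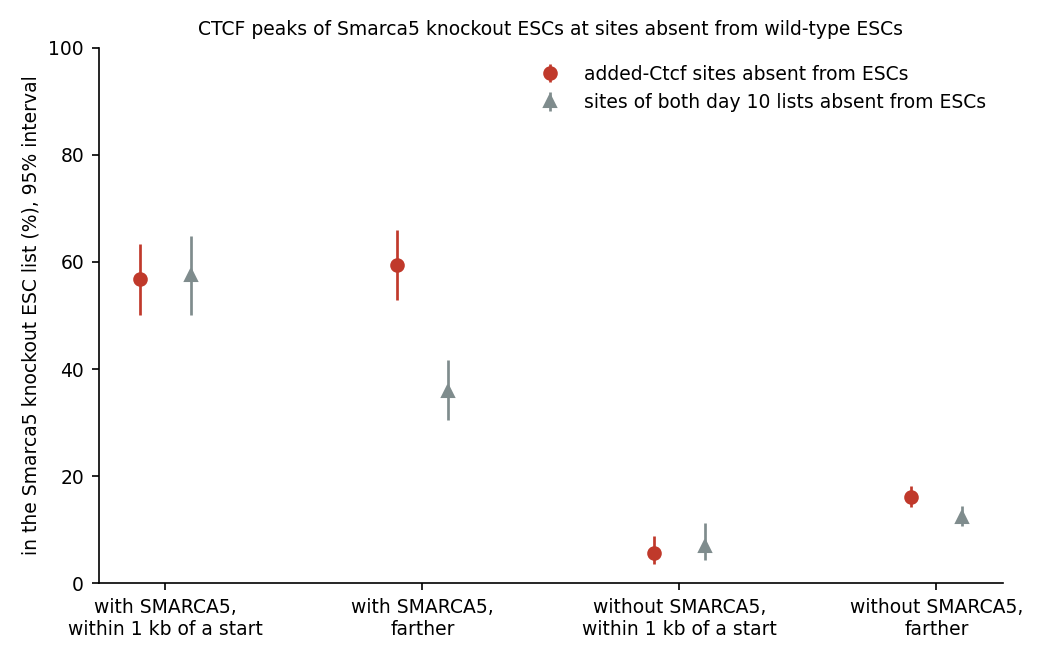
Share of sites with a CTCF peak in Smarca5 knockout ESCs (y axis, %, with 95% Wilson interval), for sites with or without SMARCA5 in ESCs and within or beyond 1 kb of a protein-coding start (x axis). Red circles are added-Ctcf sites absent from ESCs and grey triangles sites of both day 10 lists absent from ESCs; the red circles are at 56.9 and 59.5% with SMARCA5 and at 5.63 and 16.1% without.

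Across all 13 lists in which the sites were followed, 822 (37.3%) were found in the Smarca5 shRNA list and in no other, against 25.6% of sites of both day 10 lists absent from ESCs (11.7 points, 8.85 to 14.5) and 2.53% of the whole list. In none at all were 234 sites (10.6%), against 6.74% of sites of both day 10 lists absent from ESCs (3.87 points, 2.13 to 5.58) and 0.691% of the whole list. These 234 rest on the OSKM and Ctcf list alone. No site was in all 13.

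The sites were near 2109 of 21887 protein-coding genes (9.64%), counting a site inside the gene or within 10 kb of it; 16528 genes (75.5%) had any peak of the list that near. For 172 of these genes, every CTCF peak of the list there was such a site, and 189 genes had 2 or more. Most were near Zfhx3, a homeobox transcription factor gene, with 5 of its 14 list peaks, and Gse1, which encodes a partner of histone deacetylase complexes, with 4 of 35. There were 3 each near Lrrfip1 (of 10 peaks), Pdgfc (a platelet-derived growth factor ligand, of 4), Rere (a nuclear receptor corepressor of the atrophin family, of 22), Atp10a (a phospholipid flippase, of 5), Jakmip3 (of 12), Bsn (bassoon, a presynaptic scaffold, of 7), Fstl4 (of 14) and Bloc1s5 (of 6). Zfhx3, Fstl4 and Gse1 span 682, 428 and 353 kb and Bloc1s5 spans 34.4 kb, and how gene length bears on these counts was not tested.

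Gene lists for the cell types and pathways of the tissue were read against the share over all protein-coding genes, where 1744 of 38141 nearby list peaks (4.57%) were added-Ctcf sites absent from ESCs. These counts are small and carry no test, and the lists were drawn up with earlier results of these data known. In the pluripotency network 1 of 66 nearby peaks was such a site, 350 bp from the start of Tet1 (a DNA demethylase), with no such site at the other 29 genes of the list. In the fibroblast and mesenchymal list it was 4 of 80, at Zeb2 (a repressor of epithelial genes), Cdh11 (a mesenchymal cadherin), Thbs1 (a matrix glycoprotein) and Tgfb1 (a ligand). Of these, the sites at Cdh11, Thbs1 and Tgfb1 were in Thy1+ control cells and all 4 were found with Smarca5 shRNA. In the epithelial list it was 5 of 66, at the tight-junction genes Ocln, Tjp1 and Cgn, the splicing regulator Esrp1 and the desmosomal Dsp. The site 1868 bp from Esrp1 was in 4 control lists, day 0 included, whereas that at Dsp, 669 bp from its start, was in no other list.

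Signalling genes had 7 of 80, inside or within 10 kb of Wnt10b, Fzd1, Bmpr1a, Smad3, Fgfr1 and Igf1r. Wnt10b is a ligand, and Fzd1 a receptor of the same pathway. The site 49 bp from the start of Smad3, the transducer of TGF-beta signals, was found with Smarca5 shRNA, in Thy1+ control cells, and with SMARCA5 and knockout CTCF in ESCs. The site inside Bmpr1a, a BMP receptor gene, was in the control lists of day 0 and day 12. The site 9734 bp from Wnt10b was in 3 control lists, and its nearest listed start is that of Wnt1, 1717 bp away.

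Among architecture genes (CTCF, cohesin and ISWI) it was 3 of 55, at Cecr2, Stag2 and Wapl. The site inside Stag2, a cohesin subunit gene on the X chromosome, was in 4 control lists, and that 128 bp from the start of Wapl, whose product releases cohesin, was the list's only peak there and was in Thy1+ control cells. Imprinted genes had 3 of 59 (Kcnq1, Grb10 and Ube3a), and the site near Grb10, a growth inhibitor gene, was in the SSEA1- Thy1- and SSEA1+ control lists. The Hox list had 2 of 38, 1 at the start of Hoxc4 and 1 inside Hoxc10 that is also near Hoxc9. Neither Hoxc site was in a control list, and both were found with Smarca5 shRNA.

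The muscle and skeletal list had 3 of 41 (Pax3, Mef2c and Sp7) and the haematopoietic list 2 of 35 (Gata2 and Cebpa). The trophoblast and primitive endoderm list had 1 of 47 (Lama1, a laminin), the germline list 1 of 39 (Stag3, the meiotic cohesin subunit) and the neural list 0 of 27. The site inside Gata2, a blood stem cell factor gene, was in Thy1+ cells with either shRNA and in knockout ESCs.

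Where sites are joined by gaps of at most 50 kb, they form 2011 groups, of which 1832 are single sites and 14 have 3 or more. The group with most, 5 of the 10 list peaks between chr17:27549381-27623975, covers Hmga1, an architectural chromatin protein gene, with AI413582 and Nudt3. Of its 5 sites, 3 were found with Smarca5 shRNA, 2 had SMARCA5 in ESCs and 1 was in a control list. The other 13 had 3 sites each, and the first 4 of these along the genome lay at Lrrfip1 (36.4 kb), at Thap4, Atg4b and Dtymk (76.0 kb), at Rnf2, a Polycomb ubiquitin ligase gene (23.6 kb), and at Man1b1, Dpp7, Uap1l1, Sapcd2 and Entpd2 (64.1 kb). All 3 sites of the Lrrfip1 group and all 3 of the Rnf2 group were found with Smarca5 shRNA.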

How the data were processed

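The submitters' processing notes name Bowtie2, MACS2, HOMER, Trim Galore, FastQC, Picard, SAMtools, deepTools and bedtools, and mm10 (GRCm38) as the build; their roles, versions and thresholds are not stated there. The authors deposited 1 list of 400 bp peaks per group, in which the score of every peak is 0. The 28 inputs have no list and were not used here. Samples were grouped by title.

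A site counted as found in a list when it overlapped a peak by at least 1 bp. Shares carry 95% Wilson intervals and differences 95% Newcombe intervals, which cover counting error only. For the 5 Ctcf shRNA pairs a sign-flip permutation test, two-sided and exact, was used. Genes and starts are from RefSeq tables (GRCm38.p6): 21887 protein-coding gene spans, and starts for 17492 protein-coding genes, with none on chromosome 18, so the counts near a start are minima. Distances run from the peak centre to the start, and from the peak edge to the gene span. Sites counted as farther from a start, beyond 100 kb included, may lie nearer to a start absent from the table used. The site 1868 bp from Esrp1, for example, has its nearest listed start 6800408 bp away.

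The sites, the 12 gene lists and the comparisons were chosen with earlier results of these data known. The splits by start distance were added after the data were seen. Named genes are up to 4 per list with a site, in list order, the 10 genes with most sites, the 10 sites in most control lists, the first 10 by position that were missing with Smarca5 shRNA and in no control list, the first 10 by position that were near a start and in 3 or more control lists, and the 5 largest groups, with ties taken by position. Other names, such as Cgn, Fgfr1 and Igf1r, complete a list's count, and Epor, Dedd, Slco2a1 and Sox13 stand near the edge of the rule, where some peaks are not reported here. Of 271 listed genes, 3 were found under another symbol. The overlap code was tested on simulated lists. Computations used Python 3.11.15, NumPy 2.4.6, pandas 2.3.3, SciPy 1.17.1 and matplotlib 3.10.9.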

Additional observations from a re-analysis of the deposited data

How the results depend on the processing

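Of 72 values recomputed under an alternative, 59 were counted as staying within the counting interval or the direction of the reported value and none reversed. The 59 include the alternative numbers of sites (2494, 1859 and 2175, against 2206), which have no interval and no direction. A reciprocal overlap of 50%, for the rule and the lists alike, gave 2494 sites, and lowered the shares found to 20.8% in Thy1+, 12.4% in SSEA1- Thy1-, 12.1% in SSEA1+ and 9.06% in day 12 control cells, 13.6% for SMARCA5 and 18.3% in Smarca5 knockout ESCs, with 26.3% of sites near a start. Asking for no rule peak within 1 kb left 1859 sites, 21.5% of them near a start. Counting either end of any gene span put 26.9% of sites near an end, and the difference in sites found with Smarca5 shRNA was then -11.7 points (-15.7 to -7.98). Without the Thy1+ list, 19.8% of sites were in a sorted control list. Sites inside a gene were 67.9%, within 2.5 kb 73.4% and within 50 kb 88.9%. Of 24 gene list counts under other windows, 12 moved by over 1.5 times. The shRNA lists were paired by population, but by replicate number no paired analysis was possible because each group has 1 pooled list with no per-sample values; leaving out a replicate was not possible for the same reason. Depth, peak strength and the spread between cultures cannot be judged from these lists.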
